A study of Homo sapiens with 9 samples.

Results

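The 10 genes described here make, elongate and desaturate long-chain fatty acids or load them onto membrane lipids. They were chosen by name from the deposited table of 62710 genes, as the genes of fatty acid synthesis, desaturation and acyl remodelling that bear on sensitivity to ferroptosis, and each was found once. All 10 passed the filter of a mean of at least 10 normalised reads that left 15230 genes for testing. The cells were A375R, a derivative of the human melanoma line A375 that is resistant to the BRAF inhibitor PLX4032 and, per the study's methods, was cultured in its presence, controls included. Cells were treated with DMSO, with 10 µM VHL-r for 2 h, or with 10 µM R4VPL3-1 for 2 h. R4VPL3-1 is a bifunctional degrader that joins a ligand of the ubiquitin ligase RNF4 to a ligand of the ubiquitin ligase VHL, and VHL-r is the VHL-binding part alone. Each treatment has 3 poly(A) RNA-seq libraries, 9 in all, described by the submitters as biological replicates. The control libraries are labelled as wild type without a dose, and the series' design text names them as DMSO.

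The libraries held between 26435568 and 32085626 reads assigned to genes, with a median of 28165279, and the 10 genes had between 812 and 24292 reads in a library, which gives a counting error (1 over the square root of the reads) of 0.662% to 3.35% for the 30 gene-by-treatment values. The coefficient of variation between replicates was 1.12% to 13.47%, and in 7 of the 30 it was at or below the counting error. No library stood in for another: within a treatment, the chi-square per degree of freedom between libraries was between 3.55 and 7.77 in the 9 pairs, where sampling noise alone gives about 1. Of 7 melanocyte lineage markers, 5 passed the filter, among them SOX10 at a mean of 12050 normalised reads and MITF at 1260, while MLANA was at 0 in every library and TYR had a mean of 0.35. The summed level of these 7 markers was between 20730 and 22515 in DMSO. It was between 11786 and 14668 in VHL-r, and between 10325 and 12524 in R4VPL3-1. Most of this sum was SOX10, which ranged from 7900 to 17935 over the 9 libraries, so the sum says little about the other markers. The sum moved with treatment, and its part in the results below was not tested. Of the 3 keratinocyte markers 2 passed (summed level 346 to 383 in DMSO, 295 to 314 in VHL-r and 242 to 297 in R4VPL3-1, with KRT1 at or near 0), all 3 fibroblast markers passed (1497 to 2044, 1293 to 2956 and 1604 to 2062), and none of 3 blood cell markers passed.

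De novo fatty acid synthesis begins when acetyl-CoA carboxylase turns acetyl-CoA into malonyl-CoA, from which fatty acid synthase builds palmitate. Palmitate is elongated and given its first double bond, which yields monounsaturated oleate, while dietary polyunsaturated fatty acids are desaturated by FADS enzymes, activated by acyl-CoA synthetases and inserted into phospholipids by acyltransferases. Polyunsaturated acyl chains in membrane phospholipids are the substrate of the lipid peroxidation that kills cells in ferroptosis, and monounsaturated chains displace them. Transcription of much of the synthetic branch is driven by sterol regulatory element-binding proteins (SREBPs), which are held in the endoplasmic reticulum by INSIG proteins when sterols are plentiful.

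Among the 10 genes, 3 genes of the synthetic and monounsaturated branch were higher after R4VPL3-1 than after DMSO, namely FASN, ACACA and SCD. The elongase ELOVL6 was lower, and 24.9% of all tested genes passed in this comparison. FASN and SCD were also higher after R4VPL3-1 than after VHL-r, where 1.87% of all tested genes passed. Both of these calls were lost when certain single libraries were left out. None of the 10 passed the test between VHL-r and DMSO, where 19.8% of all tested genes did. The changes were of modest size: at most 1.28-fold higher and at lowest 0.851-fold. The genes that handle polyunsaturated chains (FADS1, FADS2, ACSL4, LPCAT3), the synthetase ACSL3 and the regulator SREBF1 passed in no comparison.

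**Figure D1:**
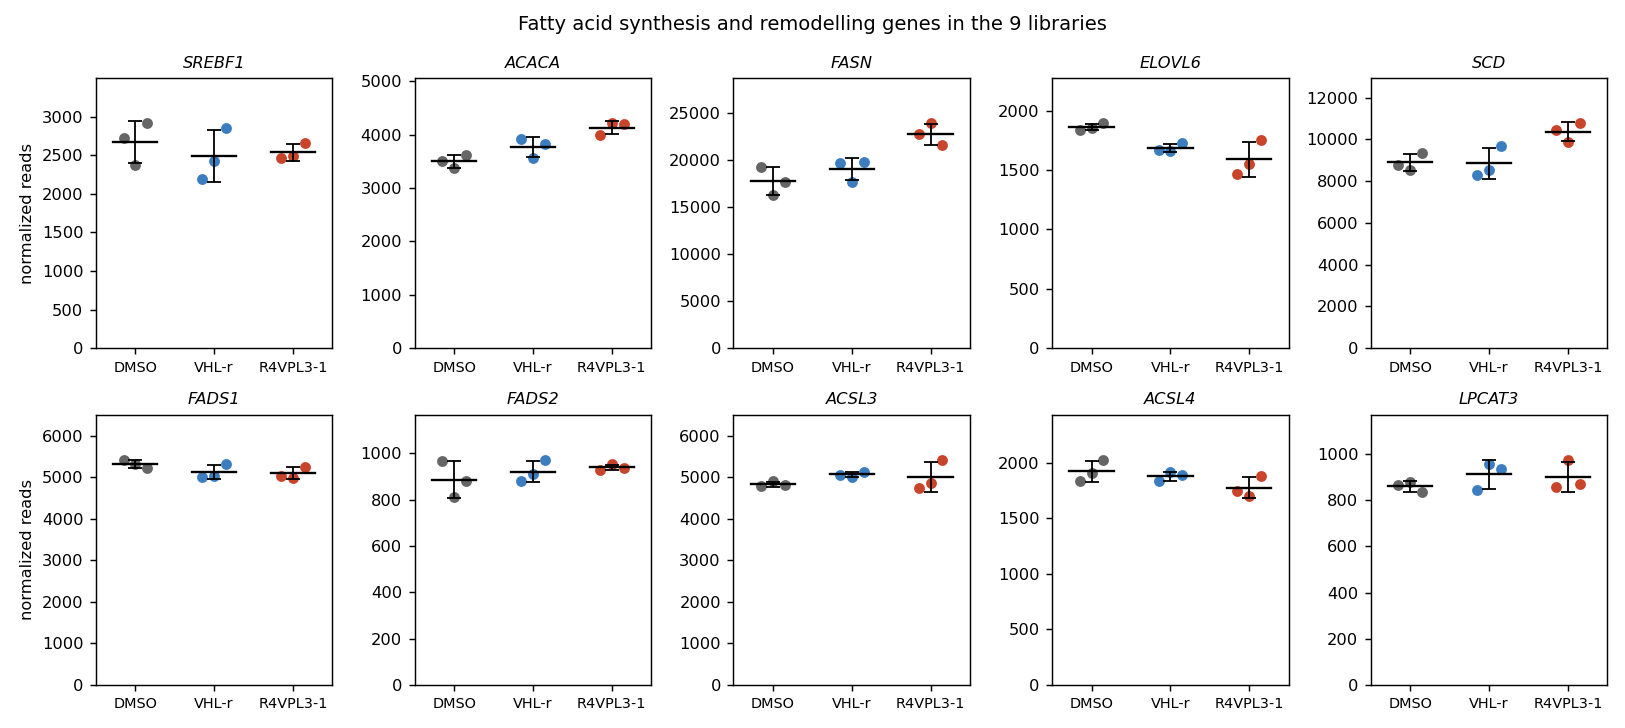
Normalised reads (vertical axes, starting at 0, with a scale of their own in each panel) of the 10 genes in the 9 libraries; points are libraries, horizontal bars the mean and error bars the SD of 3 libraries per treatment. The R4VPL3-1 libraries lie above all others for ACACA, FASN and SCD, and below all DMSO libraries for ELOVL6.

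The sequences upstream of SCD, ACACA and ELOVL6 are shown because these genes moved in R4VPL3-1, the first pair upwards and the last downwards. RefSeq promoter windows of 300 bases (250 before and 50 after a start site, build GRCh38.p14) matched 9 of the 10 genes by symbol, in 12 windows, since ACACA and FADS2 have more than 1 annotated start; FASN was not matched. The 250 bases before the start are given 5′ to 3′ on the gene's strand, with capitals marking the CCAAT box (CCAAT) and the GC box (GGGCGG) on either strand. The windows are chr10:100346983-100347232 on the plus strand for SCD, chr17:37406837-37407086 on the minus strand for ACACA, and chr4:110198616-110198865 on the minus strand for ELOVL6.
SCD: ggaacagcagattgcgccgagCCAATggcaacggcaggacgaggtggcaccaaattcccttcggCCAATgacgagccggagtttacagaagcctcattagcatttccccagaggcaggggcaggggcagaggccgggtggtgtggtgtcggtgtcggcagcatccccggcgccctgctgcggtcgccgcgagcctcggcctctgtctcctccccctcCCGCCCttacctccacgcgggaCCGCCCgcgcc
ACACA: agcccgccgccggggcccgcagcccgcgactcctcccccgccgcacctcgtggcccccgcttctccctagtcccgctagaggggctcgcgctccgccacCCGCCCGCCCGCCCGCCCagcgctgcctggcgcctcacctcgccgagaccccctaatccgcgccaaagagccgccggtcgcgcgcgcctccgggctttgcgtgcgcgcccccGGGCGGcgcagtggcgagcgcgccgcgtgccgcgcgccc
ELOVL6: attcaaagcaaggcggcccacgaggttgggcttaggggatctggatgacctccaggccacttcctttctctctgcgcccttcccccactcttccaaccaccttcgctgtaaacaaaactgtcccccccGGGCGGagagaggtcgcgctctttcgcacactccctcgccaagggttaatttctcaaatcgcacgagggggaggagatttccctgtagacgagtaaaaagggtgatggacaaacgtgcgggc

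The SCD stretch holds 2 CCAAT boxes and 2 GC boxes. The ACACA stretch holds 5 GC boxes, several of them overlapping each other, and no CCAAT box, and the ELOVL6 stretch holds 1 GC box and no CCAAT box. Over the whole 300-base windows, a GC box occurred in 10 of 12, covering all 9 matched genes. Of the 35116 promoter windows of the table, 45.0% held it. A CCAAT box occurred in 6 windows, of the 5 genes ACACA, SCD, FADS2, ACSL3 and LPCAT3 (34.6% of all windows). The hypoxia response element core ACGTG, which also lies within the E-box CACGTG, occurred in 2 windows, of ACACA and ELOVL6 (21.4% of all windows). For ACACA, the CCAAT box and ACGTG lay only in windows of its other annotated starts, not in the window shown. The sterol regulatory element TCACNCCAC (1.13% of all windows), the E-box CACGTG (7.26%), the amino acid response element TGATGNAA (3.62%), the AP-1 site TGANTCA (7.71%) and the heat shock element (0.49%) had no match in these 12 windows, on either strand, which says only that these letters are not in this stretch.

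Levels differed widely between the genes. Per kilobase of exon (the union of a gene's annotated exons), the DMSO mean was 1901 normalised reads for FASN and 1696 for SCD, then 519.9 for FADS1, 334.7 for ACSL3, 324.5 for SREBF1, 269.2 for ACACA, 256.4 for ELOVL6, 193.0 for ACSL4, 183.3 for LPCAT3 and 84.0 for FADS2. Among neighbours in this order, the DMSO libraries overlapped between FASN and SCD, ACSL3 and SREBF1, ACACA and ELOVL6, and ACSL4 and LPCAT3, so these pairs were not separated; the other steps were. In unscaled normalised reads, 1.08% of the tested genes had a higher mean than FASN and 3.15% a higher mean than SCD, while LPCAT3 was nearer the middle, with 41.15% of tested genes above it.

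FASN (ENSG00000169710, chr17:82078338-82098294, minus strand, GRCh38) encodes fatty acid synthase, the multifunctional enzyme that makes palmitate. Its normalised reads were 19237, 16267 and 17659 in the DMSO libraries, 19700, 17632 and 19738 in the VHL-r libraries, and 22682, 23854 and 21609 in the R4VPL3-1 libraries. All 3 R4VPL3-1 libraries lay above all 6 others, and the DMSO and VHL-r libraries overlapped. The means were 17721 ± 1486, 19023 ± 1205 and 22715 ± 1123 (SD, n = 3). FASN rose 1.28-fold in R4VPL3-1 against DMSO (log2 fold change 0.36, SE 0.0568, limma adjusted p = 6.15e-05). Against VHL-r the difference was 1.19-fold (log2 fold change 0.26, 95% interval 0.14 to 0.38, limma adjusted p = 0.0157). The call against VHL-r rested on single libraries: the limma adjusted p was 0.183 without VHL-r replicate 2, 0.0505 without R4VPL3-1 replicate 1 and 0.125 without R4VPL3-1 replicate 2, with log2 fold changes of 0.203, 0.257 and 0.221. Between VHL-r and DMSO the log2 fold change was 0.10 (95% interval -0.02 to 0.22, limma adjusted p = 0.233).

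ACACA (ENSG00000278540, chr17:37084992-37406836, minus strand) encodes acetyl-CoA carboxylase alpha, which supplies malonyl-CoA to fatty acid synthase. It stood at 3507, 3384 and 3625 normalised reads in DMSO, 3912, 3561 and 3835 in VHL-r, and 3993, 4212 and 4193 in R4VPL3-1. The R4VPL3-1 libraries were above all others, the lowest of them only narrowly above the highest VHL-r library, and the VHL-r range overlapped that of DMSO. ACACA rose 1.18-fold in R4VPL3-1 against DMSO (log2 fold change 0.24, SE 0.0479, limma adjusted p = 0.000798). Against VHL-r its log2 fold change of 0.13 (95% interval 0.03 to 0.23) did not pass the limma test once adjusted over all genes (adjusted p = 0.251), and neither did that of VHL-r against DMSO (0.10, 95% interval 0.00 to 0.20, adjusted p = 0.146).

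SCD (ENSG00000099194, chr10:100347233-100364826, plus strand) encodes stearoyl-CoA desaturase, which makes the monounsaturated oleate and palmitoleate. DMSO libraries had 8784, 8550 and 9354 normalised reads, VHL-r libraries 8305, 8544 and 9688, and R4VPL3-1 libraries 10447, 9872 and 10766. As for FASN, the R4VPL3-1 libraries were above all 6 others, while DMSO and VHL-r covered nearly the same range, with means of 8896 ± 414 and 8846 ± 739 against 10362 ± 453 in R4VPL3-1 (SD, n = 3). SCD rose 1.16-fold against DMSO (log2 fold change 0.22, SE 0.0538, limma adjusted p = 0.00427) and 1.17-fold against VHL-r (log2 fold change 0.23, 95% interval 0.12 to 0.34, limma adjusted p = 0.0237). The call against VHL-r was lost without VHL-r replicate 1 (limma adjusted p = 0.133), VHL-r replicate 2 (0.183), R4VPL3-1 replicate 1 (0.0944) or R4VPL3-1 replicate 3 (0.0827), where the log2 fold change stayed between 0.187 and 0.224. Between VHL-r and DMSO it was -0.01 (95% interval -0.12 to 0.10).

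ELOVL6 (ENSG00000170522, chr4:110045846-110199199, minus strand), the elongase that extends palmitate to stearate, went the other way. It had 1842, 1858 and 1894 normalised reads in DMSO, 1671, 1665 and 1729 in VHL-r, and 1469, 1554 and 1751 in R4VPL3-1. Every library of either compound lay below every DMSO library, and the 2 compounds overlapped because R4VPL3-1 replicate 3 exceeded the VHL-r libraries. ELOVL6 fell to 0.851-fold of DMSO in R4VPL3-1 (log2 fold change -0.23, SE 0.0587, limma adjusted p = 0.00548). In VHL-r the log2 fold change was -0.14 (95% interval -0.27 to -0.02, adjusted p = 0.0963), which passed only when R4VPL3-1 replicate 3 was left out (0.0404) or when the 6 libraries compared were fitted alone (0.0475). The compounds were not separated (log2 fold change -0.09, 95% interval -0.21 to 0.03, limma adjusted p = 0.718).

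**Figure D2:**
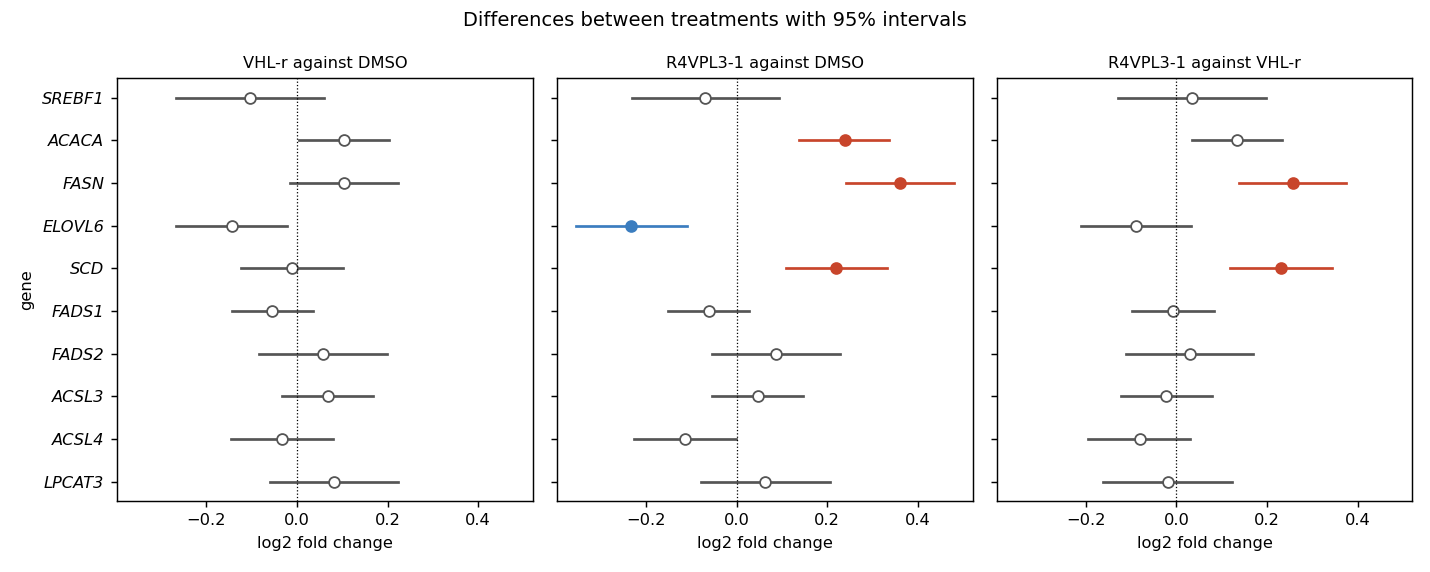
Log2 fold changes (horizontal axes) of the 10 genes (rows) in the 3 comparisons, as points with 95% intervals from the limma fit; filled red points are higher and filled blue points lower at an adjusted p of at most 0.05, open points did not pass. FASN and SCD are the 2 filled points in R4VPL3-1 against VHL-r.

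SREBF1 (ENSG00000072310, chr17:17810399-17837002, minus strand) encodes SREBP-1, the transcription factor that drives lipogenic genes. Its normalised reads were 2721, 2380 and 2914 in DMSO, 2198, 2421 and 2858 in VHL-r, and 2464, 2489 and 2666 in R4VPL3-1, ranges that overlapped throughout. The log2 fold changes were -0.10 for VHL-r and -0.07 for R4VPL3-1 against DMSO (limma adjusted p = 0.411 and 0.579), and 0.04 between the compounds (95% interval -0.13 to 0.20). Without VHL-r replicate 3 the VHL-r difference was -0.21 with an adjusted p of 0.0493, the only alternative in which it passed. The sum of reads over the gene does not separate its transcript isoforms.

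FADS1 and FADS2 encode the front-end desaturases of polyunsaturated fatty acid synthesis and lie next to each other on opposite strands (ENSG00000149485, chr11:61799627-61829318, minus, and ENSG00000134824, chr11:61792980-61867354, plus), with the span of FADS1 inside that of FADS2. FADS1 had 5417, 5315 and 5220 normalised reads in DMSO, 5022, 5024 and 5316 in VHL-r, and 5031, 4992 and 5262 in R4VPL3-1. FADS2 had 969, 812 and 880 in DMSO, 883, 910 and 971 in VHL-r, and 928, 952 and 937 in R4VPL3-1. Both overlapped between all treatments. The difference between the compounds was -0.01 on the log2 scale for FADS1 (95% interval -0.10 to 0.08) and 0.03 for FADS2 (95% interval -0.11 to 0.17), so a difference as large as that of SCD lay outside both intervals. Between 4.64% and 4.79% of their exon bases have an annotated exon on the other strand, which strand-specific counting keeps apart.

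ACSL3 and ACSL4 activate long-chain fatty acids to acyl-CoA, ACSL4 with a preference for polyunsaturated chains such as arachidonate, and ACSL3 being the synthetase associated with monounsaturated chains and lipid droplets. ACSL3 (ENSG00000123983, chr2:222860942-222944639, plus strand) had 4784, 4904 and 4808 normalised reads in DMSO, 5061, 5012 and 5125 in VHL-r, and 4728, 4856 and 5412 in R4VPL3-1. Its VHL-r libraries lay above the DMSO libraries, but the difference did not pass (log2 fold change 0.07, limma adjusted p = 0.375); R4VPL3-1 overlapped both. ACSL4 (ENSG00000068366, chrX:109624244-109733403, minus strand) had 1837, 1910 and 2025 in DMSO, 1832, 1914 and 1891 in VHL-r, and 1745, 1704 and 1882 in R4VPL3-1. The treatments overlapped, and the log2 fold change of -0.11 in R4VPL3-1 against DMSO had a limma adjusted p of 0.135, or 0.0462 with a log2 fold change of -0.157 when R4VPL3-1 replicate 3 was left out. Between the compounds the intervals were -0.12 to 0.08 for ACSL3 and -0.19 to 0.03 for ACSL4.

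LPCAT3 (ENSG00000111684, chr12:6976185-7018477, minus strand) encodes the acyltransferase that puts polyunsaturated chains into lysophospholipids. Its normalised reads were 864, 881 and 836 in DMSO, 843, 958 and 935 in VHL-r, and 856, 974 and 869 in R4VPL3-1, which overlapped in every comparison. The log2 fold change between the compounds was -0.02 (95% interval -0.16 to 0.12). Of its exon bases, 65.97% have an annotated exon on the opposite strand; the libraries were directional and the authors counted reads by strand.

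Between VHL-r and DMSO, 0 of the 10 genes passed (limma adjusted p of at most 0.05), where 19.8% of all tested genes did (10.3% higher, 9.51% lower). ELOVL6 and ACACA had an unadjusted p under 0.05 (0.024 and 0.042), and the count was also 0 by edgeR and DESeq2. Between R4VPL3-1 and DMSO, 4 of 10 passed where 24.9% of all tested genes did, with 3 higher (background 13.1%) and 1 lower (11.8%). Between R4VPL3-1 and VHL-r, 2 of 10 passed, both higher, where 1.87% of all tested genes passed, 1.14% higher and 0.729% lower. The 10 genes were chosen with earlier results of these data known, so these counts beside the shares are a description only. With 10 genes, 2 calls are a small count, and it was 0 without VHL-r replicate 2 or without R4VPL3-1 replicate 1, and 1 without VHL-r replicate 1, R4VPL3-1 replicate 2 or R4VPL3-1 replicate 3. The median log2 fold change of the 10 genes was 0.024, 0.055 and 0.011 in VHL-r against DMSO, R4VPL3-1 against DMSO and R4VPL3-1 against VHL-r, beside -0.005, -0.006 and -0.006 over all tested genes. The comparisons with DMSO share their 3 control libraries, so their values are not independent of each other; 3 pairs of treatments were compared in all. Libraries of the groups compared did not overlap for 2, 4 and 3 of the 10 genes in the same order, beside 34.3%, 38.0% and 14.1% of all tested genes. In these bulk cultures, fewer cells that express a gene and less of its RNA in each cell cannot be told apart.

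Ratios between genes within a library do not depend on how libraries were scaled, and 6 were computed as a description without a test. SCD to ACSL4, set by the desaturase of monounsaturated chains over the synthetase of polyunsaturated chains, had log2 ratios of 2.257, 2.163 and 2.208 in DMSO, 2.180, 2.158 and 2.357 in VHL-r, and 2.582, 2.534 and 2.516 in R4VPL3-1. All R4VPL3-1 libraries were above all 6 others, by 0.335 on average over DMSO and 0.312 over VHL-r, and this was the only ratio of the 6 for which R4VPL3-1 stood clear of both other treatments. The SCD values alone also lay above all 6 others, while ACSL4 overlapped between treatments, so this ratio is not a result separate from SCD. ACSL3 to ACSL4 averaged 1.33 in DMSO, 1.431 in VHL-r and 1.491 in R4VPL3-1; both compounds lay above DMSO and overlapped each other. FASN to ACACA (2.335, 2.335 and 2.458) and SCD to FADS2 (3.329, 3.261 and 3.463) were higher in every R4VPL3-1 library than in every VHL-r library but overlapped DMSO. For FASN to ACACA this was close to a tie, with R4VPL3-1 replicate 3 at 2.365 and VHL-r replicate 3 at 2.364. SCD to FASN and FADS1 to FADS2 overlapped in all comparisons.

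**Figure D3:**
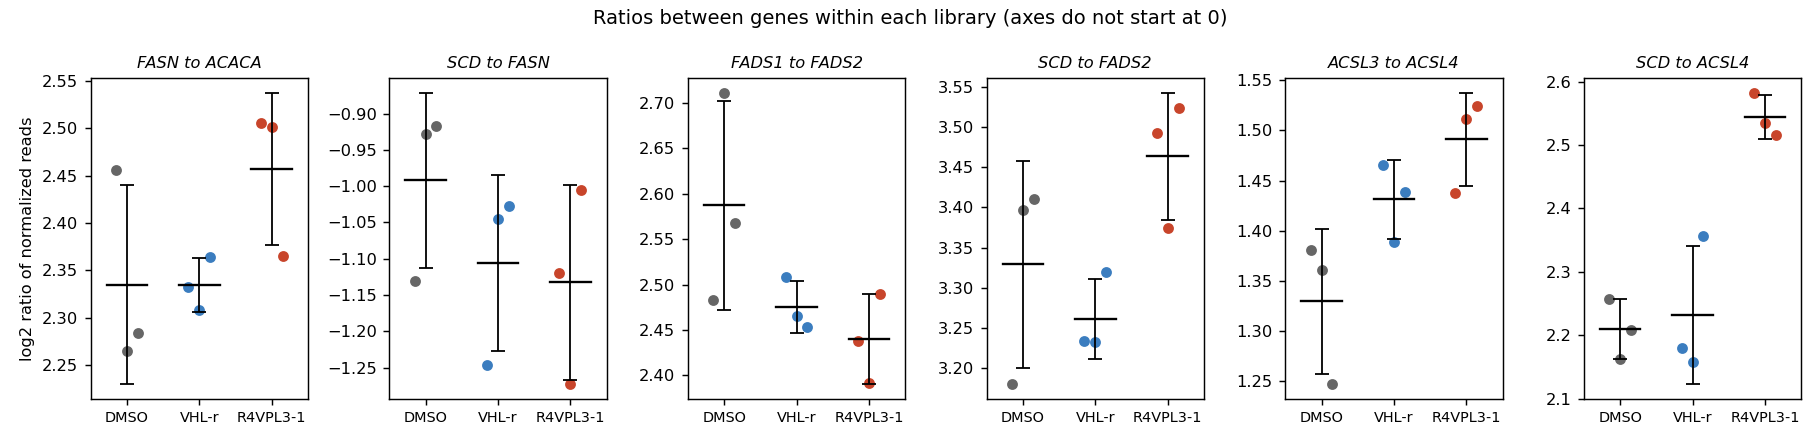
Log2 ratios of normalised reads between pairs of genes within each of the 9 libraries (vertical axes, not starting at 0); points are libraries, horizontal bars the mean and error bars the SD of 3 libraries per treatment. For SCD to ACSL4 the R4VPL3-1 libraries, from 2.516 to 2.582, lie above all others.

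The genes whose profile over the 9 libraries was most like that of FASN, by Euclidean distance of log2 values centred on each gene's mean, were CAD (distance 0.181), UBE2O (0.193) and COL5A1 (0.206), where the FASN profile itself has a length of 0.513. For SCD they were RNF135 (0.114), VLDLR (0.166) and PRKCE (0.17), beside a length of 0.383. CAD encodes the enzyme that begins pyrimidine synthesis, and VLDLR a lipoprotein receptor. Of these 6, UBE2O alone passed the test in R4VPL3-1 against VHL-r (log2 fold change 0.23, limma adjusted p = 0.0171).

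Around these 10 genes, 139 further genes of lipid metabolism in 10 lists were examined, of which 121 were tested. The lists were chosen with earlier results of these data known, so a share above that of all tested genes is no independent support. Between R4VPL3-1 and VHL-r 7 of them were higher and 2 lower (7.44% called, beside 1.87% of all tested genes), between R4VPL3-1 and DMSO 20 were higher and 11 lower (25.6%, beside 24.9%), and between VHL-r and DMSO 15 were higher and 9 lower (19.8%, as among all tested genes). Of the 9 calls between the compounds, 5 were in the cholesterol list, 2 in the remodelling list, 1 among the lipogenic regulators and 1 in the droplet list. The total of 9 fell to 4 without VHL-r replicate 2 and also without R4VPL3-1 replicate 1, to 5 without VHL-r replicate 3 and also without R4VPL3-1 replicate 2, and to 6 without DMSO replicate 2.

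The regulators of lipogenic transcription were tested for 12 of 14 genes. INSIG1, the SREBP target whose product retains the SREBP complex in the endoplasmic reticulum, changed most. Its normalised reads were 848, 881 and 921 in DMSO, 1297, 1437 and 1471 in VHL-r, and 3442, 2987 and 2757 in R4VPL3-1, 3 ranges that did not touch. It rose 1.58-fold in VHL-r (limma adjusted p = 5.79e-07), 3.45-fold in R4VPL3-1 (1.18e-13) and 2.18-fold between the compounds (log2 fold change 1.12, 95% interval 0.98 to 1.27, 1.13e-09). MLX, the partner of the carbohydrate-responsive lipogenic factors, fell in both compounds (log2 fold change -0.24 in VHL-r and -0.29 in R4VPL3-1, limma adjusted p = 0.000425 and 4e-05). MLXIP, which dimerises with MLX, rose in VHL-r (0.19, adjusted p = 0.0164; 0.127 without DMSO replicate 2 and 0.0577 without VHL-r replicate 3). No other gene of the list passed in any comparison. Shares called were 25% in VHL-r against DMSO, 16.7% in R4VPL3-1 against DMSO and 8.33% between the compounds. Of all tested genes, 19.8%, 24.9% and 1.87% passed in the same order.

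In the supply of acetyl-CoA and malonyl-CoA, all 10 genes were tested and none differed between the compounds at the threshold. Against DMSO, VHL-r had 3 higher and 1 lower, and R4VPL3-1 2 of each. This was 40% in both, beside 19.8% and 24.9% of all tested genes. Over the other fits, including each library left out, the VHL-r counts ranged from 1 to 3 higher and 1 to 2 lower. The R4VPL3-1 counts covered the same ranges. ACACB, the mitochondrial relative of ACACA whose malonyl-CoA restrains fatty acid oxidation, rose from 278.0 normalised reads to 469.2 in VHL-r and 467.0 in R4VPL3-1 (limma adjusted p = 2.9e-05 and 2.02e-05). MID1IP1, which promotes polymerisation of acetyl-CoA carboxylase, fell from 894.0 to 602.5 and 606.4 (limma adjusted p = 8.45e-06 and 7.47e-06). Between the compounds the 95% interval of the log2 fold change was -0.22 to 0.23 for ACACB and -0.14 to 0.17 for MID1IP1.

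Among the other elongation enzymes, 11 of 12 were tested, and 2 rose in each comparison with DMSO. That share of 18.2% was not above the share of all tested genes, 19.8% in VHL-r and 24.9% in R4VPL3-1. ELOVL4, an elongase of very long chains, went from 351.6 normalised reads to 511.8 in VHL-r and 474.0 in R4VPL3-1 (limma adjusted p = 9.37e-05 and 0.000753). ELOVL3 was low, with 10.90, 4.92 and 3.04 normalised reads in DMSO, 26.02, 24.16 and 27.65 in VHL-r, and 18.67, 16.91 and 21.41 in R4VPL3-1 (limma adjusted p = 0.000281 and 0.00213 against DMSO). Of the other desaturases and their electron donors, 8 of 10 were tested and only POR, a reductase that passes electrons to microsomal enzymes, passed, in R4VPL3-1 against DMSO (log2 fold change 0.21, limma adjusted p = 0.0108; 0.0582 without R4VPL3-1 replicate 2). None of the 11 tested of 13 other acyl-CoA synthetases and uptake genes passed in any comparison, nor did the 2 lipoxygenases that passed the filter, of 7 in that list.

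Acyl remodelling and ether lipid genes were tested for 20 of 21. Counts higher and lower were 1 and 2 in VHL-r against DMSO, 1 and 3 in R4VPL3-1 against DMSO, and 1 and 1 between the compounds. In the same order, the shares called were 15%, 20% and 10%, beside 19.8%, 24.9% and 1.87% of all tested genes. While LPCAT3 was not called, LPCAT1, LPCAT2 and LPCAT4, the other lysophosphatidylcholine acyltransferases, were lower in R4VPL3-1 than in DMSO. LPCAT1 had 5615, 5294 and 5320 normalised reads in DMSO, 4943, 5108 and 5162 in VHL-r, and 4333, 4528 and 4610 in R4VPL3-1. LPCAT1 fell against DMSO (log2 fold change -0.27, limma adjusted p = 8.96e-05). It also fell against VHL-r (-0.18, 0.0394), a call lost with no filter on low values (adjusted p = 0.0831), with only the 6 libraries compared (0.0614), or without DMSO replicate 2, VHL-r replicate 2 or 3, or R4VPL3-1 replicate 1 or 2 (adjusted p between 0.0622 and 0.269). LPCAT2 fell in both compounds (log2 fold change -0.27 and -0.43, limma adjusted p = 0.000446 and 1.41e-06), and LPCAT4 fell in R4VPL3-1 (-0.28, 0.00187). The VHL-r value of LPCAT4 was -0.18 with an adjusted p of 0.047, which rose above 0.05 when any of the DMSO or VHL-r libraries, or R4VPL3-1 replicate 1, was left out (0.0533 to 0.173), with no filter (0.0739), with upper quartile scaling (0.0525) or by DESeq2 (0.0566). LPIN1, a phosphatidate phosphatase on the path to diacylglycerol, rose in steps: 1342, 1343 and 1430 in DMSO, 1730, 1661 and 1758 in VHL-r, and 2101, 1896 and 2083 in R4VPL3-1. Its log2 fold change was 0.56 in R4VPL3-1 against DMSO (limma adjusted p = 1.15e-07) and 0.24 against VHL-r (0.0206; 0.163 without VHL-r replicate 2, 0.157 without R4VPL3-1 replicate 1 and 0.0647 without R4VPL3-1 replicate 3).

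Storage and release of fatty acids from droplets moved in mixed directions, with 8 of 10 genes tested. DGAT2, which makes triacylglycerol, had 143, 161 and 186 normalised reads in DMSO, 170, 199 and 195 in VHL-r, and 97.1, 120 and 123 in R4VPL3-1. It fell against VHL-r to 0.605-fold (log2 fold change -0.73, 95% interval -1.004 to -0.447, limma adjusted p = 0.00268) and against DMSO to 0.696-fold (0.00597), and both calls held with each library left out and in every other fit run. DGAT1, the other enzyme of this step, rose in R4VPL3-1 against DMSO (log2 fold change 0.39, limma adjusted p = 0.000294). In VHL-r it was also called higher (0.23, limma adjusted p = 0.0234), a call lost without DMSO replicate 2 or 3, or VHL-r replicate 2 or 3 (adjusted p between 0.0584 and 0.144). The droplet coat protein gene PLIN2 fell under both compounds (-0.31 and -0.42, limma adjusted p = 9.46e-05 and 1.73e-06), while PNPLA2, the triglyceride lipase, rose under both (0.28 and 0.25, 0.00261 and 0.00423). Its coactivator gene ABHD5 was also called higher under both. In VHL-r its log2 fold change was 0.25 (limma adjusted p = 0.00909; 0.0673 without VHL-r replicate 1). In R4VPL3-1 it was 0.20 (limma adjusted p = 0.0308), a call lost when any DMSO library, or R4VPL3-1 replicate 1 or 2, was left out (adjusted p between 0.0563 and 0.141). Counts were 3 higher and 2 lower in VHL-r, 3 and 3 in R4VPL3-1 against DMSO, and 0 and 1 between the compounds. Against DMSO the shares called were 62.5% in VHL-r and 75% in R4VPL3-1, beside 19.8% and 24.9% of all tested genes. Between the compounds, 1 of the 8 tested genes passed, where 1.87% of all tested genes did.

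For mitochondrial fatty acid oxidation 19 of 20 genes were tested. In each comparison with DMSO 2 were higher and 2 lower. That share of 21.1% was near the share of all tested genes, 19.8% in VHL-r and 24.9% in R4VPL3-1. None passed between the compounds, where 1.87% of all tested genes did. PDK4, a kinase that holds back pyruvate oxidation, fell to 0.486-fold in R4VPL3-1 (63.7 against 130.2 normalised reads, limma adjusted p = 0.000189). In VHL-r it was at 91.4 (log2 fold change -0.52, limma adjusted p = 0.0489), and that p rose to between 0.0532 and 0.232 when any DMSO library, VHL-r replicate 1 or 2, or R4VPL3-1 replicate 2 was left out, and to between 0.0502 and 0.0824 with a pseudocount of 0.1, no filter, either rescaling or DESeq2. CPT1C, a carnitine palmitoyltransferase family member, rose from 20.3 normalised reads to 43.2 in VHL-r and 41.3 in R4VPL3-1 (log2 fold change 1.05 and 1.00, limma adjusted p = 0.00227 and 0.00267).

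The cholesterol branch, which shares SREBP control with fatty acid synthesis, was tested for 20 of 22 genes. In R4VPL3-1 against DMSO 8 were higher and 0 lower, beside 13.1% and 11.8% of all tested genes. In VHL-r against DMSO 2 were higher and 1 lower, a share of 15% beside 19.8% of all tested genes. In R4VPL3-1 against VHL-r 5 were higher and 0 lower, beside 1.14% and 0.729% of all tested genes. The list median between the compounds was 0.099, beside -0.006 for all tested genes. The 5 were MSMO1, IDI1, HMGCS1, HSD17B7 and STARD4, and the count fell to 2 without VHL-r replicate 2 or 3 or without R4VPL3-1 replicate 1 or 2, and to 3 without DMSO replicate 2. MSMO1, a sterol demethylase, had 322, 363 and 411 normalised reads in DMSO, 376, 341 and 327 in VHL-r, and 576, 515 and 512 in R4VPL3-1; the first 2 treatments overlapped and R4VPL3-1 was above them (1.53-fold over VHL-r, limma adjusted p = 0.000377). STARD4, a sterol transporter, showed another pattern, with 372, 317 and 366 in DMSO, 278, 264 and 257 in VHL-r, and 315, 380 and 380 in R4VPL3-1. It fell in VHL-r (log2 fold change -0.40, limma adjusted p = 0.0057), while R4VPL3-1 overlapped DMSO, and it had a limma adjusted p of 0.0225 between the compounds that rose to between 0.0815 and 0.146 when VHL-r replicate 2 or 3, or R4VPL3-1 replicate 2 or 3, was left out. IDI1, isopentenyl diphosphate isomerase, rose in steps through VHL-r (1379, 1907 and 2292; limma adjusted p = 0.00535 between the compounds, 0.0513 without R4VPL3-1 replicate 1). HMGCS1 and HSD17B7, enzymes of early and late sterol synthesis, had log2 fold changes of 0.27 and 0.42 between the compounds (limma adjusted p = 0.0388 and 0.0379), each lost without DMSO replicate 2, without VHL-r replicate 2 or 3, or without R4VPL3-1 replicate 1 or 2, and for HSD17B7 also without VHL-r replicate 1 (adjusted p between 0.0505 and 0.326). HMGCS1 also lost its call with no filter on low values (0.0593) and with limma's robust option (0.0603). HMGCS1 had 3221, 2766 and 2613 normalised reads in DMSO, 2696, 2643 and 2443 in VHL-r, and 3388, 3017 and 2988 in R4VPL3-1. Like STARD4, it had its lowest mean in VHL-r, and R4VPL3-1 overlapped DMSO.

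**Figure D4:**
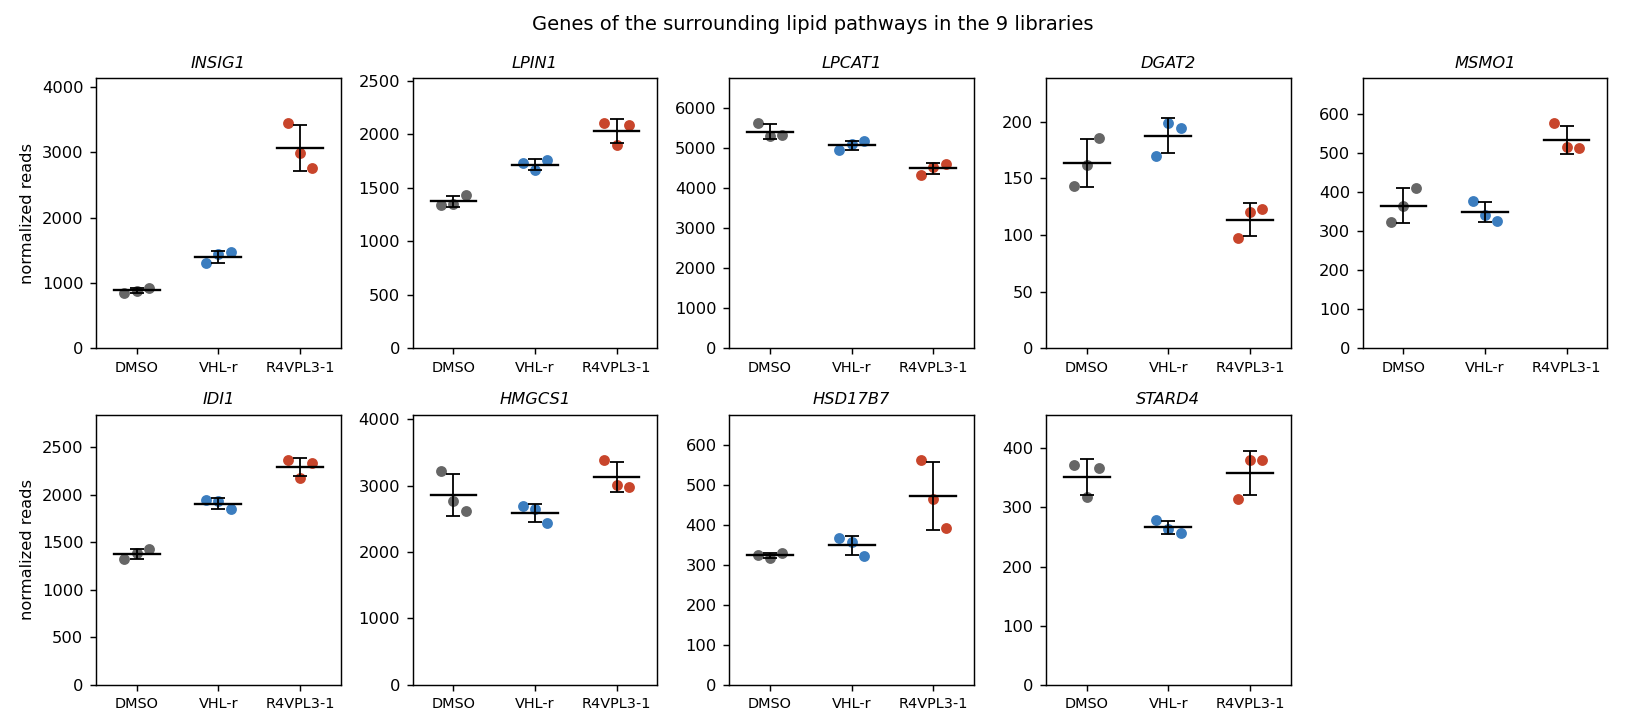
Normalised reads (vertical axes, starting at 0, with a scale of their own in each panel) in the 9 libraries of the 9 genes from the surrounding lists that passed between R4VPL3-1 and VHL-r; points are libraries, horizontal bars the mean and error bars the SD of 3 libraries per treatment. INSIG1, LPIN1 and IDI1 step up through VHL-r to R4VPL3-1. STARD4 and HMGCS1 have their lowest mean in VHL-r, and their R4VPL3-1 libraries overlap DMSO.

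**Figure D5:**
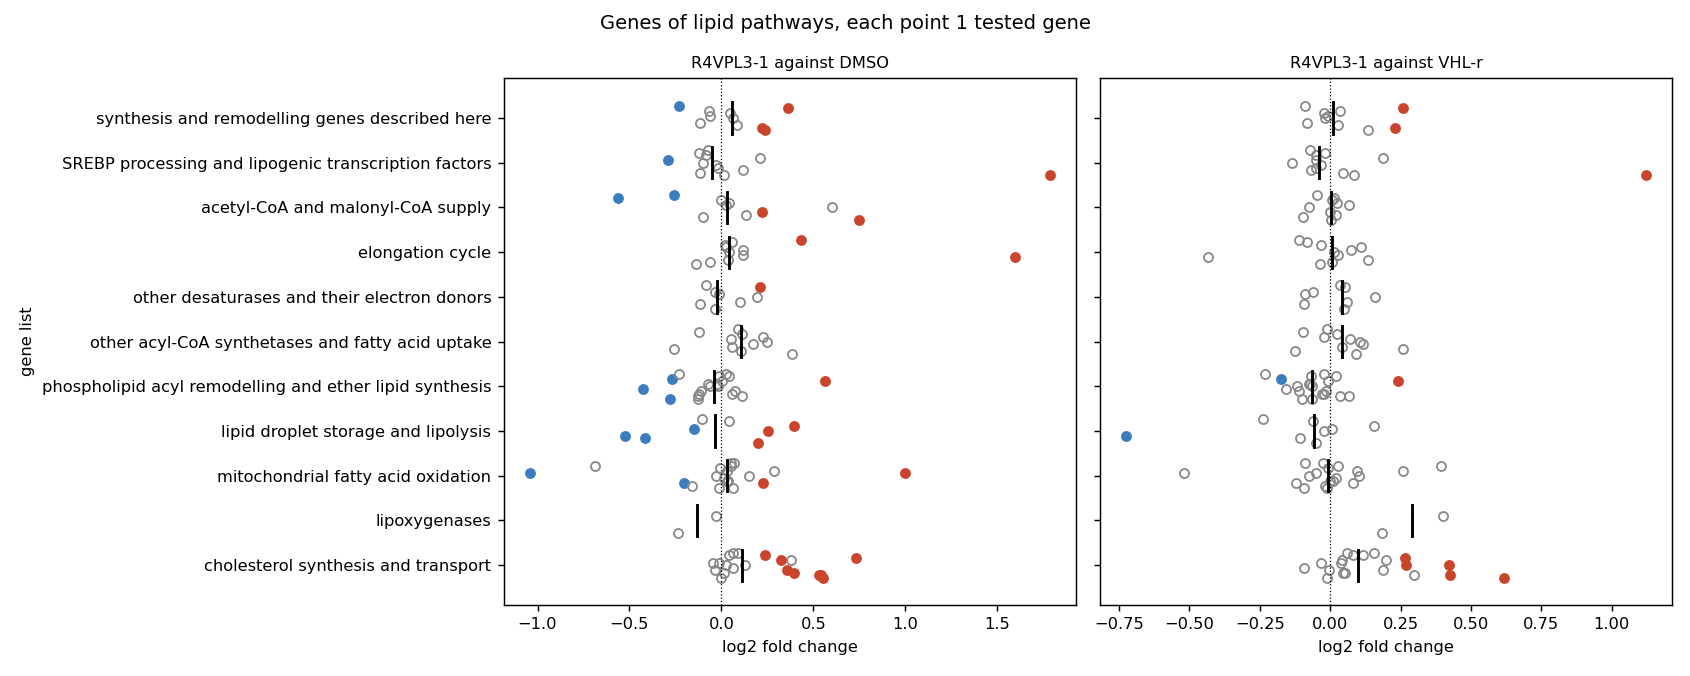
Log2 fold changes (horizontal axes, a scale of their own in each panel) of every tested gene in the 10 genes described here and the 10 surrounding lists (rows), for R4VPL3-1 against DMSO and against VHL-r; filled red points are higher and filled blue points lower at a limma adjusted p of at most 0.05, open points did not pass, and black bars are list medians. The cholesterol list has 8 and 5 filled points, all higher, and INSIG1 is the point farthest to the right in both panels.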

How the data were processed

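RNA-seq was carried out on 9 libraries of A375R cells, 3 per treatment (DMSO, VHL-r, R4VPL3-1). Per the methods and labels, directional poly(A) libraries were prepared together, single-end reads were aligned to GRCh38 by STAR and counted per gene and strand by htseq-count, and the authors normalised with DESeq2 (version 1.36.0). The deposited values are a normalised signal: reads per gene divided by a size factor for each library, rounded to 2 decimals, for 62710 genes. Dividing them by the worth of 1 read gave whole reads for 100.0% of values above 0, within 0.1 reads.

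The 15230 genes whose mean value reached 10 were fitted by limma (version 3.58.1, R 4.3.3, trend option) on log2(value + 1), with treatment as the single factor; fold changes are on this scale. P-values were adjusted by Benjamini-Hochberg over all tested genes and called at 0.05 or less. Count models fitted to recovered reads, by DESeq2 (1.42.0) or by the quasi-likelihood test of edgeR (4.0.16), served as alternatives, and the procedure was tested on simulated data. The 10 genes and the lists were chosen with earlier results of these data known. From each list, genes passing between the compounds and the 3 largest called changes against DMSO could be named. Alternatives for the listed genes were added after seeing the data. Nothing says that replicates came from separate cultures beyond their description as biological replicates. Promoter sequences are from RefSeq. A gene of the cholesterol list is not reported here and was left out of the list counts.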

Additional observations from a re-analysis of the deposited data

How the results depend on the processing

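Against DMSO, the 4 genes that passed in R4VPL3-1 passed under all alternatives, which were other pseudocounts, filters, scalings, variance estimates, count models, only the libraries compared, and each library left out; ACSL4 passed as well in 1 of them. For VHL-r against DMSO the count was 1 in place of 0 with only the 6 libraries compared, and 0 to 1 with each library left out. Between the compounds it was 0 to 2 with each library left out and 0 at an adjusted p of at most 0.01, in place of 2. Over all genes, 1885 (VHL-r) and 2494 (R4VPL3-1) in place of 3016 and 3792 passed against DMSO at 0.01, and 182 to 358 in place of 285 between the compounds with each library left out. Signs turned only for differences that did not pass: FADS1 between the compounds was 0.003 with upper quartile scaling, and with each library left out the log2 fold change spanned -0.078 to 0.034 (SCD), -0.005 to 0.123 (FADS2) and -0.066 to 0.004 (ACSL4) in VHL-r against DMSO, -0.012 to 0.086 (ACSL3) in R4VPL3-1 against DMSO, and -0.051 to 0.138 (SREBF1), -0.03 to 0.02 (FADS1), -0.001 to 0.067 (FADS2), -0.08 to 0.017 (ACSL3) and -0.078 to 0.017 (LPCAT3) between the compounds. The cause was not tested. Of 49 named differences in the surrounding lists, 15 lost their call in at least 1 of 20 alternatives and none changed sign. Pairing by replicate number was at most weak: correlations of same-numbered libraries were -0.006 to 0.121, 2 of 9 over 0.1. Those of differently numbered libraries were -0.148 to 0.098, 0 of 18 over 0.1. With the replicate block the 10 genes kept counts of 0, 4 and 2. Over all genes the block gave 3451 calls in VHL-r against DMSO, 4241 in R4VPL3-1 against DMSO and 389 between the compounds. Without the block these were 3016, 3792 and 285. With 3 libraries per treatment, no exact permutation test of a single gene could go below p = 0.1, and only 1 time and dose were measured. Rescaling moved the median of all genes by at most 0.018 (log2).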
